A study of Chlorocebus aethiops with 3 samples.

Results

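Cells answer foreign RNA with a set of genes that work in order. Sensors in the cytosol and in endosomes bind double-stranded or otherwise unusual RNA and signal through adaptor proteins, IRF transcription factors switch on interferon, and secreted interferon acts through its receptor and STAT factors to raise a large group of effector genes. Those effectors hold back viral entry, translation, RNA stability and assembly, and many are kept at low levels until interferon arrives. The mRNAs of this system were examined in heavy polysomes, the part of a sucrose gradient where mRNAs carrying many ribosomes sediment, after RNA interference against RNA helicase A (RHA), a helicase that unwinds structured RNA and belongs to the DEAH-box family.

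The set was chosen as 52 human RefSeq transcript ids of interferon-stimulated and RNA-sensing genes. It was drawn up to cover the IFIT proteins, which bind viral RNA ends; the OAS enzymes, which make the activator of RNase L; the MX and GBP families of antiviral GTPases; the IFITM membrane proteins; the ubiquitin-like modifier ISG15; the RNA sensors DDX58, IFIH1, DHX58, TLR3 and EIF2AK2 with the adaptor MAVS; and STAT and IRF factors. Other interferon-induced genes outside these families are in the set as well. The array carries probes for 47 of the 52 ids, out of 32695 ids in all. No probe carries the ids NM_001572, NM_016816, NM_002535, NM_148919 or NM_002038. The files pair a probe with its RefSeq id and not with a gene symbol, so results are given by id, without saying which id belongs to which gene. Where an id had several probes, the probe with the highest mean log2 signal stood for it.

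The knockdown samples were COS-7 cells, which grow from African green monkey kidney and resemble fibroblasts, transfected 2 times with a pair of siRNAs against the coding region of human RHA at 0.5 nM. The control samples were COS-7 cells given scrambled siRNA in the same way. In both groups each transfection ran for 4 hours without serum and was followed by 24 hours in medium with 10% serum. On each of 3 two-colour Agilent arrays of 1 slide, biological replicates 1 to 3, knockdown RNA was in Cy5 and control RNA in Cy3. Dyes were not swapped, so a dye effect of a probe and the knockdown cannot be told apart, and the array's probes follow human transcripts. An array ratio compares the groups' heavy polysomes in how much of an RNA they hold, relative to RNAs of like brightness, and a change in loading cannot be told from a change in the RNA's abundance or in the share of cells that make it. The RHA message itself, NM_001357, had mean log2 ratios of -0.33 and -0.28 at its 2 tested probes. On replicates 1, 2 and 3 the first gave -0.12, -0.11 and -0.76 and the second -0.04, -0.2 and -0.6. Neither probe passed the test (limma adjusted p of 0.21 and 0.218), so the groups are called after their labels. The labelled cell type was not set against marker genes.

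About as many ids of the interferon list were detected as not. To enter the test, a probe had to be well above background, by the scanner software's flag, in the same channel of all 3 arrays. By that rule 24 of the 47 ids were tested, or 51.1%, against 10822 of all 18389 ids with the NM prefix of RefSeq mRNAs, or 58.9%. Of the 24, 21 were well above background in both channels of all 3 arrays. The other 3, NM_000593, NM_001548 and NM_006820, were above background on all 3 arrays in the knockdown channel and on 2, 2 and 1 arrays in the control channel. No id was above background on every array in 1 channel and on none in the other.

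The undetected ids lay at the level of empty spots. For 16 ids no channel of any array was well above background: NM_017631, NM_002053, NM_002462, NM_002985, NM_005419, NM_003733, NM_080657, NM_017523, NM_016817, NM_002176, NM_001565, NM_012420, NM_002463, NM_016323, NM_002534 and NM_006084. Their median spot intensities ran from 56 to 77 in the knockdown channel and from 24 to 35 in the control channel. Negative control spots had medians of 60.5, 59 and 59 in the knockdown channel and 26, 27 and 27 in the control channel of replicates 1, 2 and 3. The log2 ratios of these 16 ids averaged between -0.05 and 0.1, and at such signals a ratio near 0 says nothing of a change. A transcript at a low level and a monkey transcript that its human probe does not match cannot be told apart here.

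A further 7 ids were seen on some arrays and were not tested. NM_004159 was the brightest of them, above background on 1 array in the knockdown channel and on 2 in the control channel. Its log2 ratios were 0.01, -0.25 and -0.27 on replicates 1, 2 and 3. NM_004335 was above background in 1 control channel and in no knockdown channel, with log2 ratios of -0.13, -0.15 and -0.38. NM_014314, NM_001549 and NM_002198 were above background on 1 array in each channel, NM_001547 on 1 array in the knockdown channel alone and NM_006417 on 1 array in the control channel alone. Detection was fullest on replicate 3, where 29 of the 47 ids were above background in the knockdown channel and 30 in the control channel. On replicate 1 the numbers were 24 and 22, and on replicate 2 they were 24 and 23. Over all probes of the array, replicate 3 likewise had the greatest share above background, 53.1% in the knockdown channel and 50.7% in the control channel. The shares were 45.5% and 37.5% on replicate 1 and 46.3% and 38.7% on replicate 2. The knockdown channel thus detected more probes over the whole array as well.

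Knockdown cells had 2 ids of the interferon list higher and 4 lower in heavy polysomes, and the remaining 18 tested ids did not pass the test. The 2 ids that rose, NM_020746 and NM_022873, did so by 2.15-fold and 1.73-fold. The 4 that fell, NM_017414, NM_002201, NM_005101 and NM_003113, were at 0.712, 0.524, 0.485 and 0.405 times the control level. The values of the list were centred near 0, with 12 means above 0 and 12 below and a median log2 ratio of -0.01, where the median of all 14522 tested ids was 0.01. These counts rest on limma's moderated test with Benjamini-Hochberg adjustment over all 18146 tested probes, at an adjusted p under 0.05.

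The share of the list that was called was near the background of the array. The 6 called ids are 25% of the 24 tested. Over all tested probes 18.4% were called, 9.73% as risen and 8.67% as fallen, and over all ids at their brightest probe 19.3%, of which 9.95% rose and 9.37% fell. The median size of the log2 ratio was 0.17 in the list and 0.23 over all tested ids. By at least 2-fold, 3 of the 24 ids changed, NM_020746 upward and NM_005101 and NM_003113 downward, and 5.2% of all tested ids had ratios of that size.

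**Figure D1:**
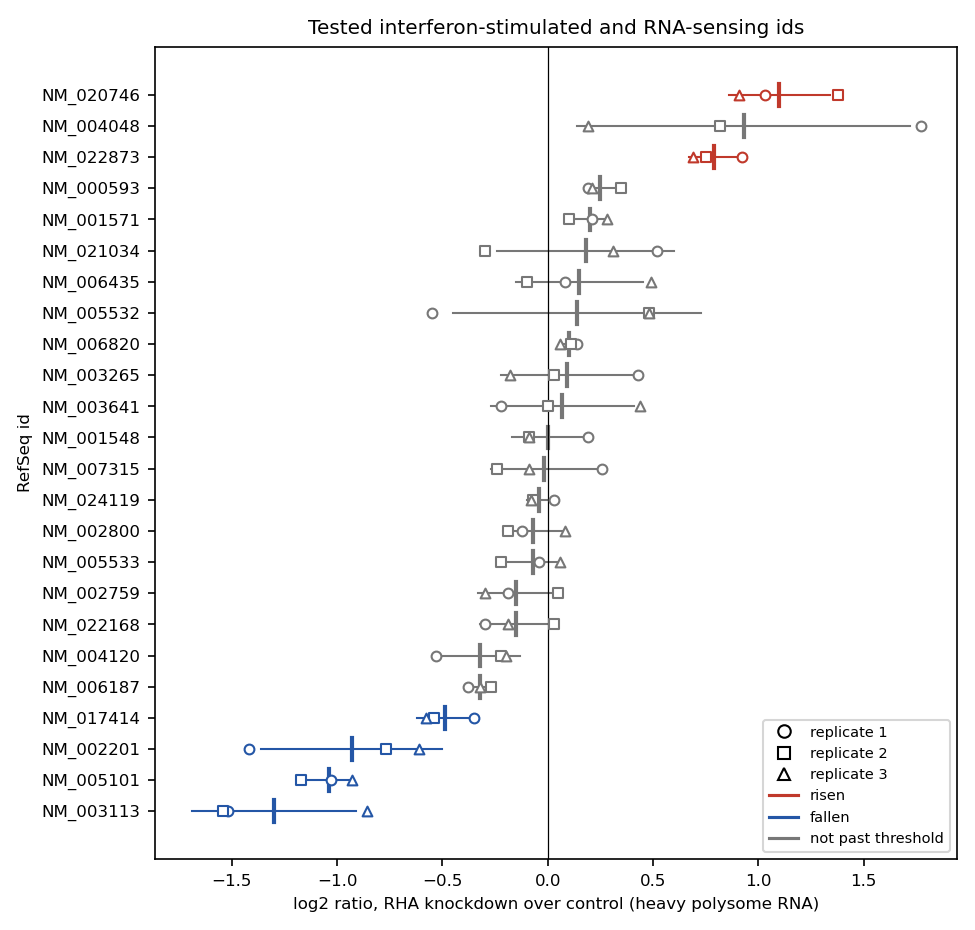
Log2 ratios of RHA knockdown over control (horizontal axis) for the 24 tested ids of the interferon list (vertical axis), with circles, squares and triangles for replicates 1, 2 and 3, thick ticks for means and lines for ± 1 SD. The 2 risen ids and the 4 fallen ids have all 3 arrays on their side of 0, while NM_004048 spreads between 0.19 and 1.77.

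NM_020746 had the largest rise. Its normalized signals were 563, 519 and 274 in knockdown cells and 277, 200 and 146 in control cells, in intensity units after normalization of all arrays to a common brightness. The knockdown channel was the higher on every array, although the knockdown value of replicate 3 lay just under the control value of replicate 1. On the log2 scale the arrays gave ratios of 1.03, 1.38 and 0.91, averaging 1.1 ± 0.24 (SD, n = 3) with a limma adjusted p of 0.0157. The rise was seen at 1 of its probes, A_23_P68539. A second tested probe of the same id, A_24_P928798, gave 0.09, 0.08 and 0.05 per array (log2 ratio), averaging 0.07 ± 0.02 (SD, n = 3) with a limma adjusted p of 0.614. That probe was dimmer, with a mean log2 signal of 6.52 against 8.16, and was above background on all 3 arrays in the knockdown channel and on 1 in the control channel. The third, A_24_P164854, was above background nowhere. The mean over the tested probes of the id was a log2 ratio of 0.59, at a limma adjusted p of 0.0228.

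NM_022873, with a single probe, gave the more even rise. It had normalized signals of 393, 449 and 350 in knockdown cells against 207, 267 and 217 in control cells. All 3 knockdown values exceeded all 3 control values. The arrays' log2 ratios were 0.92, 0.75 and 0.69, averaging 0.79 ± 0.12 (SD, n = 3), with a limma adjusted p of 0.0169. Neither rise was lost under another background correction, filter or centring. Median centring favours rises, however, so those settings are a weak check of them. Of the probe calls, 98.4% were upward with centring over all probes and 73.1% with centring over the tested probes. Without replicate 2 both rises missed the threshold, with log2 ratios of 0.97 and 0.81 and limma adjusted p of 0.116 and 0.117.

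NM_003113 had the largest fall and was among the brightest ids of the array, brighter than 98.4% of all ids. Its normalized signals were 2710, 2400 and 5550 in knockdown cells against 7750, 6980 and 10000 in control cells, so the groups did not overlap. Per array the log2 ratio was -1.52, -1.54 and -0.86, averaging -1.30 ± 0.39 (SD, n = 3), with a limma adjusted p of 0.0168. Replicate 3 was the brightest in both channels and had the smallest fall. The other probe of NM_003113, A_24_P385611, was above background on no array, with log2 ratios of 0.07, -0.06 and 0, so the fall is known from a single probe. The 2 probes of this id differ from background level to the top of the array, and the files do not say which part of the transcript either one covers.

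NM_005101 fell about as much on each array. It had normalized signals of 344, 339 and 553 in knockdown cells and 702, 765 and 1060 in control cells. Every knockdown value was below every control value. This made log2 ratios of -1.03, -1.17 and -0.93, averaging -1.04 ± 0.12 (SD, n = 3), and its limma adjusted p of 0.015 was the lowest of the list.

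NM_002201 fell by unequal amounts. Its normalized signals were 646, 606 and 1010 in knockdown cells against 1730, 1040 and 1540 in control cells, again without overlap. On the log2 scale the arrays gave ratios of -1.42, -0.77 and -0.61, averaging -0.93 ± 0.43 (SD, n = 3), with a limma adjusted p of 0.0298. Replicate 1 had the lowest ratio, and without it the mean was -0.69. The call was lost when no filter on dim probes was set, at a limma adjusted p of 0.068, and with median centring over the tested probes, at 0.072.

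NM_017414 had the smallest change of the called ids. It had normalized signals of 138, 129 and 167 in knockdown cells and 176, 188 and 250 in control cells, and the groups did not overlap. In log2 ratios these were -0.35, -0.54 and -0.58, averaging -0.49 ± 0.13 (SD, n = 3), with a limma adjusted p of 0.0345. A second probe, A_23_P132159, was above background on 2 of 3 arrays in each channel and was not tested. Its log2 ratios were -0.08, -0.04 and -0.22. NM_017414 missed the threshold without replicate 3, at a limma adjusted p of 0.0961, and with median centring over the tested probes, at 0.0638.

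The calls of the 4 falls changed with the normalization. With median centring of each array over all probes in place of loess, no fall passed the test (1 of the 24 ids was below 0 at an unadjusted p under 0.05), and the log2 ratios were -0.45 for NM_003113, -0.41 for NM_005101, -0.24 for NM_002201 and -0.1 for NM_017414, with limma adjusted p of 0.149, 0.12, 0.504 and 0.71. That setting moved the median of all tested probes from a log2 ratio of 0.02 to 0.3, so these values lie further below the array's median than below 0. With centring on the tested probes, NM_003113 at -0.77 and NM_005101 at -0.73 passed, with limma adjusted p of 0.02 and 0.00647. Without replicate 2 limma called none of the 24 ids and none of the tested probes, where an unadjusted p under 0.05 was reached by 3 ids above 0 and 4 below it, and by 2233 and 2014 probes.

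**Figure D2:**
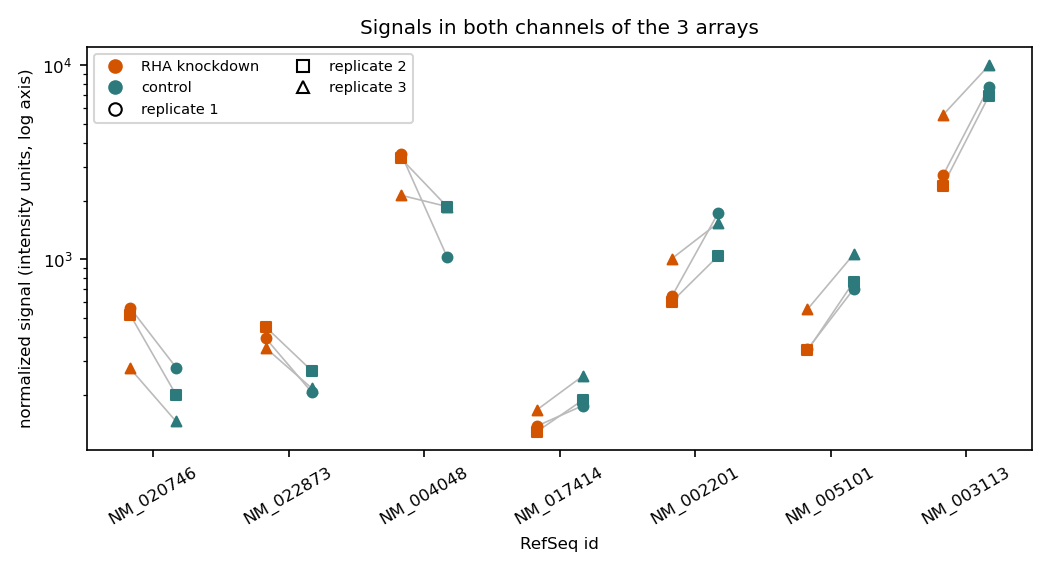
Normalized signals (vertical log axis, intensity units) of the 6 called ids and NM_004048 (horizontal axis), with RHA knockdown in orange left of control in teal and a line joining the channels of an array. Every array slopes the same way for each id, and the circles, squares and triangles mark replicates 1, 2 and 3.

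**Figure D3:**
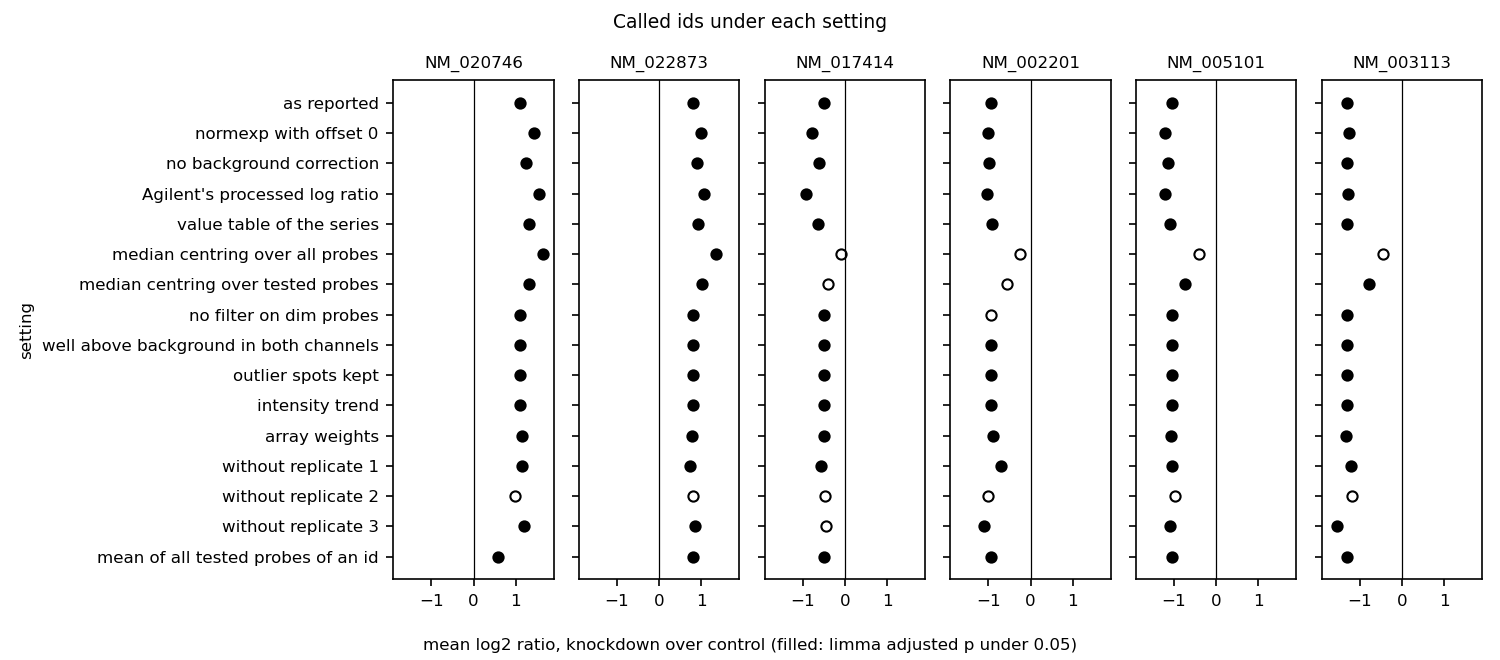
Mean log2 ratios (horizontal axes) of the 6 called ids, 1 panel each, under the reported setting and 15 alternatives (vertical axis), filled where the limma adjusted p is under 0.05. No mean crosses 0, and all 6 are open without replicate 2, while the 4 fallen ids are open with median centring over all probes and NM_017414 and NM_002201 are open in a few further settings.

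NM_004048 showed the greatest disagreement between arrays. Its normalized signals were 3500, 3310 and 2140 in knockdown cells and 1030, 1870 and 1870 in control cells, so the groups did not overlap. Per array the log2 ratio was 1.77, 0.82 and 0.19, averaging 0.93 ± 0.79 (SD, n = 3), and the limma adjusted p was 0.0906. The probe is printed as 10 spots, and the SD between those spots was 0.03, 0.04 and 0.04 on replicates 1, 2 and 3. Without replicate 3 its mean was 1.3 with a limma adjusted p of 0.022, and without replicate 1 it was 0.51 with 0.124.

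The other id printed as 10 spots, NM_005532, changed sign between arrays. It had normalized signals of 315, 304 and 314 in knockdown cells, which hardly differed, against 460, 218 and 226 in control cells. This made log2 ratios of -0.55, 0.48 and 0.48, averaging 0.14 ± 0.59 (SD, n = 3), with a limma adjusted p of 0.711. The SD between its spots was 0.06, 0.06 and 0.07. Replicate 1 stood apart in its control channel. A second probe of this id, A_24_P270460, was above background on no array.

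Another 3 uncalled ids had an unadjusted p under 0.05, as NM_004048 did. NM_006187 had a highest knockdown signal, on replicate 2, below its lowest control signal of 118, on replicate 3. Its log2 ratios of -0.38, -0.27 and -0.32 averaged -0.32 ± 0.05 (SD, n = 3), with a limma adjusted p of 0.0736. The second probe of NM_006187, A_23_P47955, was also below 0 on all arrays, with -0.1, -0.15 and -0.13 and a limma adjusted p of 0.39.

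NM_004120 had normalized signals of 87.9, 87.7 and 92 in knockdown cells against 127, 102 and 106 in control cells. Its log2 ratios of -0.53, -0.22 and -0.2 averaged -0.32 ± 0.19 (SD, n = 3), with a limma adjusted p of 0.117. NM_000593 had normalized signals of 143, 140 and 129 in knockdown cells against 125, 110 and 111 in control cells, a mean log2 ratio of 0.25 ± 0.08 (SD, n = 3) and a limma adjusted p of 0.137. These 3 ids did not overlap between the groups, and their mean log2 signals lay between 6.64 and 6.96. NM_000593 had passed the filter through the knockdown channel alone, where it was higher, so its p and lack of overlap are descriptions.

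Calls of dim ids, and that of NM_004048, moved with the background correction. The offset of 50 that was added to every signal pulls the ratios of dim probes toward 0. With an offset of 0 the log2 ratio was -0.78 for NM_004120 and -0.65 for NM_006187, with limma adjusted p of 0.0217 and 0.0461, beside 1 for NM_004048 at 0.00617. NM_000593 had 0.53 there, and 0.95 in Agilent's processed log ratio, with limma adjusted p of 0.11 and 0.0509. At offset 0, 3 ids rose and 6 fell. The value table of the series, signals without background correction and Agilent's own log ratio gave 3 and 6 as well. Calls over the whole array also grew in these settings, so more calls were not particular to the list. At offset 0, 2891 probes rose and 2281 fell, against 1765 and 1574 as reported. The numbers were 2437 and 2056 for the value table, 2275 and 2006 without correction, and 2808 and 1952 for Agilent's ratio.

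**Figure D4:**
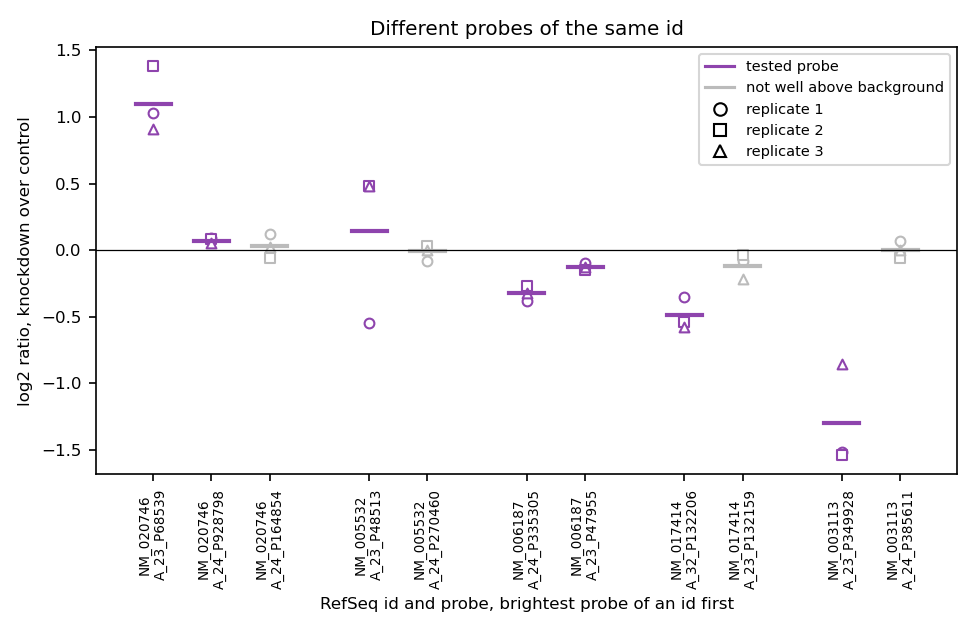
Log2 ratios of knockdown over control (vertical axis) at each probe (horizontal axis) of the 5 ids that have several probes and at least 1 tested, with symbols for replicates and bars for means, tested probes in purple. The dimmer probes of NM_020746, NM_017414 and NM_003113 lie near 0, between -0.12 and 0.07 on average.

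The other 13 tested ids had mean log2 ratios between -0.15 and 0.2. NM_021034 was the brightest id of the list, brighter than 99.1% of all ids. It had normalized signals of 9640, 9070 and 13200 in knockdown cells and 6720, 11100 and 10600 in control cells, with log2 ratios of 0.52, -0.3 and 0.31. Its 95% interval ran from -0.27 to 0.63, so the arrays do not settle its direction. With median centring over all probes its mean was 1.09 at a limma adjusted p of 0.0154.

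NM_006435 had log2 ratios of 0.08, -0.1 and 0.49, and NM_003641 had -0.22, 0 and 0.44. Both were highest on replicate 3. NM_003265 was highest on replicate 1, with 0.43, 0.03 and -0.18. NM_007315 had 0.26, -0.24 and -0.09.

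NM_002759 had normalized signals of 213, 231 and 179 in knockdown cells and 243, 224 and 221 in control cells, with log2 ratios of -0.19, 0.05 and -0.3. NM_022168 had log2 ratios of -0.3, 0.03 and -0.19. Both had a mean of -0.15, with 95% intervals from -0.43 to 0.14 and from -0.44 to 0.13. NM_002800, at normalized signals of 346, 342 and 531 in knockdown cells and 375, 388 and 502 in control cells, had log2 ratios of -0.12, -0.19 and 0.08.

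NM_024119 had log2 ratios of 0.03, -0.07 and -0.08, and NM_006820 had 0.14, 0.11 and 0.06. NM_006820 is dim, and its mean of 0.1 became 0.45 at offset 0 and 0.74 in Agilent's processed log ratio, past the threshold in neither. NM_005533 had -0.04, -0.22 and 0.06, and NM_001548 had 0.19, -0.09 and -0.09. NM_001571 was above 0 on every array, with 0.21, 0.1 and 0.28 and a limma adjusted p of 0.219.

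Under the reported processing alone, the intervals bound what could have been missed among the uncalled ids. For 12 of the 18 the 95% interval of the log2 ratio lay within 0.5 of 0, and for 17 it lay within 1, the exception being NM_004048 with an interval from 0.17 to 1.68. These are intervals of single ids, not adjusted for their number, and for dim ids they cover ratios already drawn toward 0 by the offset. Other processing gave means outside them. NM_004120, with an interval from -0.61 to -0.03, had -1.48 in Agilent's processed log ratio, at a limma adjusted p of 0.00631. NM_021034 had 1.09 with median centring over all probes. Of the ids bounded within 0.5 of 0, NM_022168 had -0.73, NM_006820 0.74 and NM_000593 0.95 in Agilent's processed log ratio. Their limma adjusted p there was 0.0952, 0.0976 and 0.0509.

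Signals of the groups did not overlap for 11 of the 24 ids, 5 with knockdown above and 6 with knockdown below. Of the 5, NM_000593 and NM_006820 had passed the filter through the knockdown channel alone, so their count is a description. Over all tested ids with a value on every array, 35.1% did not overlap, 19.7% with knockdown above and 15.4% below. A single sign on all 3 arrays was seen for 12 of the 24 ids, 6 above and 6 below 0, and for 58.7% of all tested ids. The median SD between arrays was 0.17 in the list and 0.2 over all tested ids.

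Across the 24 ids, replicates 1 and 2 had a Pearson's r of 0.81 for their log2 ratios, replicates 1 and 3 had 0.7 and replicates 2 and 3 had 0.85. Spearman's rho for the same pairs was 0.6, 0.64 and 0.67. Over all tested ids Pearson's r was 0.75, 0.64 and 0.7. These are descriptions across ids, which are not independent replicates, and the 3 arrays share their dye orientation. The tested ids of the list were brighter than a median of 80.3% of all ids. The filter itself selects for brightness, as 44.4% of all ids passed it, so this rank does not set the list apart. The called ids had mean log2 signals of 7.44 to 12.34 and the uncalled ones 6.4 to 13.23.

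**Figure D5:**
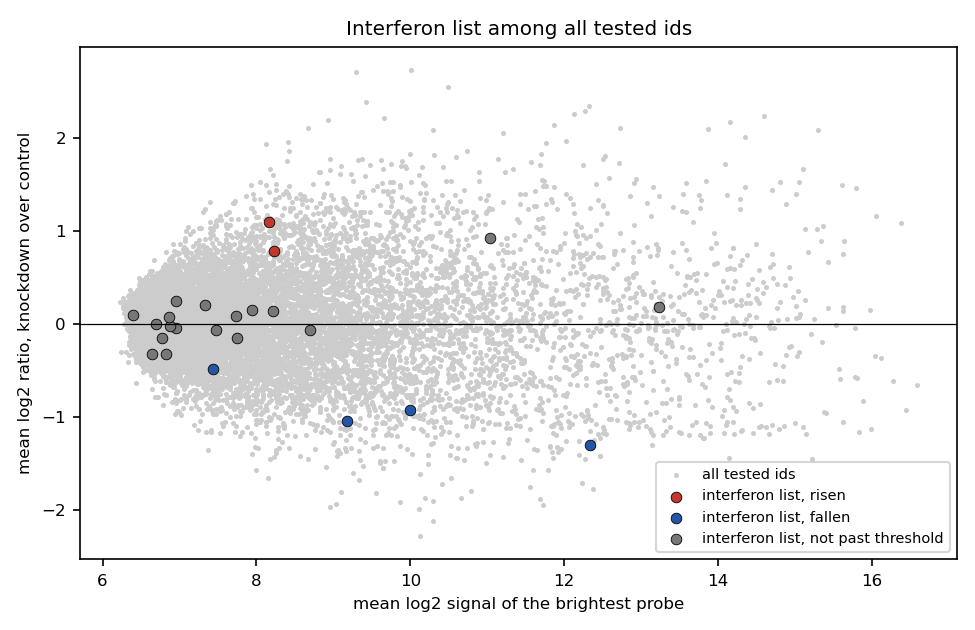
Mean log2 ratio of knockdown over control (vertical axis) against mean log2 signal of the brightest probe (horizontal axis) for all 14522 tested ids in grey and the 24 of the interferon list in red (risen), blue (fallen) and dark grey (not past the threshold). The list spans signals of 6.4 to 13.23 and lies inside the cloud of all ids.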

How the data were processed

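Per the file headers, the deposited spot intensity values come from Agilent Feature Extraction 10.9.1.1 on design 014850, and the submitters' processing notes name version 10.9 and limma. Per the file headers, the scanner tables also hold a log10 ratio of processed Cy5 over Cy3 signals, which matched those signals within 1e-04 except where it was exactly 0, on 32.7%, 31.2% and 26.1% of probe spots of replicates 1, 2 and 3. The authors' value table gives log2 ratios, and its scale, centring and direction are unstated. It followed loess ratios of Cy5 over Cy3 without background correction (Pearson's r of 0.995, 0.994 and 0.994, medians of 0, 0.01 and 0.01), so it was read as knockdown over control.

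From the scanner files, median spot signals were corrected with normexp (offset 50) and normalized by loess within arrays, control spots at weight 0, in R 4.3.3 with limma 3.58.1. Between 142 and 150 flagged spots per array were left out, 0 of them of the list. Spots of a probe were averaged, and a probe with several spots counted as well above background where at least as many spots were as were not. Of 41000 probes 18146 entered limma's 2-sided test (lmFit with an intercept, then eBayes). Signals per channel were taken after Aquantile, which leaves ratios unchanged. The fit alone was run on simulated ratios with independent noise, which cannot show effects of dye or normalization. With 3 arrays an exact sign-flip test cannot go below p = 0.25, and the number of arrays limits the precision.

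The members and lists were chosen with earlier results of these data known. Named ids are all tested members; untested members are named by their detection. The lists of other pathway genes and of cell type markers, and the promoter motif, were not computed, since no annotation table or sequence was used here.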

Additional observations from a re-analysis of the deposited data

How the results depend on the processing

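Across 15 alternatives the 24 tested ids gave 357 values, of which 301 were counted as keeping direction and side of the threshold. Of the rest, 14 lost a call, 23 gained a call and 19 changed sign. NM_001548, whose mean rounds to 0, was counted as keeping direction, though its values ran from -0.17 to 0.15. None of the sign changes was in the 6 called ids. Leaving out 1 replicate gave 0 to 3 risen and 0 to 4 fallen ids of the list, 0 to 1515 risen and 0 to 1431 fallen probes, and a median log2 ratio of the list of -0.07 to 0.03. The 0 in each case was without replicate 2, where limma gave an unadjusted p under 0.05 to 3 ids of the list above 0 and to 4 below it. Without replicate 3, NM_017414 was not called, at a limma adjusted p of 0.0961. Median centring over all probes gave 6 risen and 0 fallen ids (8 and 1 with an unadjusted p under 0.05), a list median of 0.33, and 3561 risen and 59 fallen probes, so that 98.4% of probe calls were upward, against 52.9% as reported. Median centring over the tested probes gave 4 risen ids and 3141 risen probes, 73.1% of probe calls being upward, and NM_017414 and NM_002201 then missed the threshold at limma adjusted p of 0.0638 and 0.072. Without a filter there were 1073 risen and 1000 fallen probes, and NM_002201 missed it at 0.068. The intensity trend gave 3007 risen and 2522 fallen probes, offset 0 gave 2891 risen probes and a list median of 0.04, and 2808 probes rose with Agilent's processed log ratio. The causes of these differences were not tested.

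The counted sign changes were all of uncalled ids. Median centring over all probes gave log2 ratios of 0.2 for NM_007315, 0.22 for NM_024119, 0.51 for NM_002800, 0.34 for NM_005533, 0.34 for NM_002759 and 0.04 for NM_022168. Median centring over the tested probes gave -0.17 for NM_006820, 0.19 for NM_002800, 0.02 for NM_005533 and 0.02 for NM_002759. Offset 0 gave 0.04 for NM_007315. Leaving out 1 replicate took the log2 ratio of NM_003265 over a range of -0.07 to 0.23, NM_005532 over -0.04 to 0.48, NM_007315 over -0.16 to 0.08, NM_005533 over -0.13 to 0.01, NM_006435 over -0.01 to 0.28 and NM_003641 over -0.11 to 0.22. Knockdown and control RNA of a replicate share an array, so each ratio is already a paired value and the reported fit is paired. No further block could be added. The alternatives for other pathway genes were not run, and no id allowed a fold bound, since none was above background on every array in 1 channel and on none in the other. For the 23 untested ids the signal over background limits what can be said.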
